A study of Mus musculus with 6 samples.

Results

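miR-146a, miR-146b and miR-147 are microRNAs known as brakes on inflammatory signalling, and each was read by 1 quantitative PCR assay, named mmu-miR-146a, mmu-miR-146b and mmu-miR-147. They were chosen by name from the assay lists, without star-strand (minor-arm) assays and without a limit on the signal, which gave 3 of the 345 miRNA assays that had a normalised value in all 6 samples. The samples were CD8+ T cells of pMel-1 mice, a strain whose T cells bear a transgenic receptor specific for gp100, a melanoma antigen. In the 3 DC-primed samples the T cells had been cultured for 3 days with bone marrow-derived dendritic cells matured with lipopolysaccharide (LPS), a Toll-like receptor ligand. In the 3 B cell-primed samples they had been cultured for 3 days with splenic B cells loaded with a peptide of human gp100. The samples came as 3 pairs, 1 of each group per round, and are numbered by round. The labels do not give the age of the mice, whether rounds used separate animals, or whether the priming cells were removed before RNA extraction, so a p-value here speaks only for the scatter among the 6 samples.

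NF-kappaB, the transcription factor switched on by Toll-like receptors and by the T cell receptor, raises transcription of miR-146a. miR-146a and miR-146b repress IRAK1 and TRAF6, proteins that carry the signal from Toll-like receptors to NF-kappaB, so that these miRNAs form a negative feedback loop. In mice, T cells that lack miR-146a respond more strongly and for longer to their antigen. miR-147 is induced by Toll-like receptor ligands in mouse macrophages, where it dampens cytokine production.

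The mature sequences of the miR-146 pair, from RefSeq on build GRCm38.p6, are shown because both miRNAs have the same seed (bases 2 to 8, in capitals), the stretch that pairs with target mRNAs. Bases are counted from 1 at the 5′ end.
miR-146a-5p: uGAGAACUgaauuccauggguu
miR-146b-5p: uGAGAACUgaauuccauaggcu
They are identical at 20 of 22 bases and differ by G18A and U21C, with the miR-146a base given first. Both differences lie outside the seed and near the 3′ end, and each miRNA was amplified from its own forward primer with a shared reverse primer. How far each assay reads the other miRNA was not tested. Among 1738 mature mouse miRNAs in the same RefSeq table, no other has this seed. Mature miR-146a-5p lies at chr11:43374435-43374456 on the minus strand, in the gene Mir146, which overlaps no other annotated gene. Mature miR-146b-5p lies at chr19:46342790-46342811 on the plus strand, in Mir146b, within the long non-coding RNA gene Gm36493. The hairpin of miR-147 (Mir147) lies at chr2:122640803-122640881 on the plus strand, within the protein-coding gene AA467197, also called Nmes1. The assay name does not give the arm, and miR-147-3p is named here only.

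Signal was read as the threshold cycle (Ct), which falls by 1 for each 2-fold rise in template. Levels are given as minus dCt on the log2 scale, where dCt is Ct minus 1 number per sample set by the authors, so a higher level means more miRNA. A Ct of 35 or above was taken as a late signal. The number of miRNA assays with a Ct below 35 was 280 to 337 of 350 in DC-primed samples, with DC-primed sample 3 the lowest, and 336 to 341 in B cell-primed samples. The authors' number, a measure of how late the miRNA assays of a sample read as a whole, was 26.2, 28.5 and 30.5 cycles in DC-primed samples 1, 2 and 3, and 26.4, 27.1 and 27.6 cycles in B cell-primed samples. The control small RNAs RNY3 and snoRD47 were latest in DC-primed sample 2 instead. Their median Ct was 28.3 and 23.2 there, and 26.8 and 21.8 in DC-primed sample 3. Haematopoietic miRNAs were read in both groups: all 6 on the list had an assay, and 5 were below Ct 35 in every sample. The exception was miR-142-3p, for which DC-primed sample 3 had no Ct and the authors filled in a value. Of the 6, 5 had a mean difference above 0 and 1 below on the authors' scale (1 and 5 without normalisation), with a median of 0.83, and none passed (limma). These miRNAs mark blood cells in general and none of them defines CD8+ T cells. In samples of this kind, fewer cells of a type and less RNA per cell cannot be told apart.

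None of the 3 miRNAs passed the test across all assays in the comparison of priming by dendritic cells with priming by B cells. miR-147 was the one whose DC-primed levels all lay above the B cell-primed levels on the authors' scale. miR-146b was far higher in the DC-primed sample of rounds 1 and 2 and far lower in that of round 3. miR-146a differed least. limma with Benjamini-Hochberg adjustment over 345 assays called 0 of the 3 at an adjusted p under 0.05, against a background of 0% of all assays. At an unadjusted p under 0.05, 1 of the 3, miR-147, was higher in DC-primed cells (limma). In that direction there were 2 of all 345 assays (0.58%), miR-147 itself among them, and 25 in the other.

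**Figure D1:**
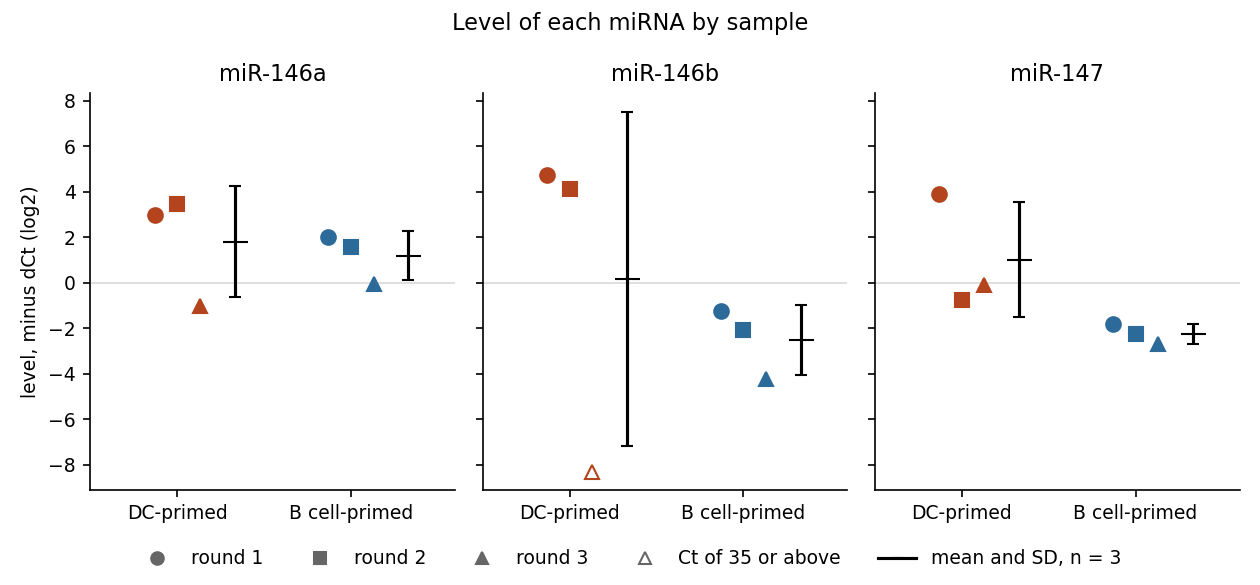
Level of miR-146a, miR-146b and miR-147 as minus dCt (log2, vertical axis) in each DC-primed and B cell-primed sample. Symbols mark the round, an open symbol a Ct of 35 or above, and the bar the group mean with its SD (n = 3). For miR-147 all DC-primed points lie above all B cell-primed points, whereas for miR-146b DC-primed sample 3, at -8.31, lies below every other point.

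miR-146a, the best-studied brake on NF-kappaB in T cells, came up at 23.23, 25 and 31.47 cycles in DC-primed samples 1, 2 and 3, and at 24.33, 25.55 and 27.68 cycles in B cell-primed samples 1, 2 and 3. After normalisation the DC-primed levels were 2.95, 3.46 and -1.01 and the B cell-primed levels 2.02, 1.57 and -0.05. The groups overlapped, because the DC-primed level was above the B cell-primed level in rounds 1 and 2 and below it in round 3. DC-primed samples averaged 1.80 ± 2.45 and B cell-primed samples 1.18 ± 1.09 (SD, n = 3 each). The difference of 0.62 ± 1.28 (SE) had a 95% confidence interval of -2.39 to 3.62 and did not pass (limma, adjusted p = 0.968). Its direction and size rested on single choices: the difference was -0.21 without DC-primed sample 2, 2.02 without DC-primed sample 3 and -0.71 without normalisation, where the median of all assays was also shifted, to -1.32.

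miR-146a was among the earlier signals of the panel in most samples. Ranked by Ct among 345 assays, with rank 1 the earliest, it stood at 61, 38 and 154 in DC-primed samples 1, 2 and 3 and at 66, 82 and 133 in their B cell-primed partners. A rank also depends on the primer of each assay, so it places an assay within a sample and does not measure molecules. In both groups the sample of round 3 had the latest rank.

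miR-146b, which shares its seed and so most predicted targets with miR-146a, came up at 21.46, 24.36 and 38.77 cycles in DC-primed samples 1, 2 and 3, and at 27.6, 29.19 and 31.85 cycles in B cell-primed samples 1, 2 and 3. The DC-primed value of round 3 was the only late one among the values of the 3 miRNAs in all 6 samples. After normalisation the DC-primed levels were 4.72, 4.10 and -8.31 and the B cell-primed levels -1.25, -2.07 and -4.22. DC-primed samples 1 and 2 stood above all B cell-primed samples and DC-primed sample 3 below all of them.

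The DC-primed minus B cell-primed difference of miR-146b was 5.97 in round 1, 6.17 in round 2 and -4.09 in round 3. In round 1 it was the 5th highest of 345 assays and in round 2 the 3rd highest, while in round 3 it was the 17th lowest. Over all rounds, DC-primed samples averaged 0.17 ± 7.35 and B cell-primed samples -2.51 ± 1.53 (SD, n = 3 each). The difference of 2.68 ± 3.25 (SE) had a 95% confidence interval of -4.95 to 10.3 and did not pass (limma, adjusted p = 0.922). The DC-primed SD was the 3rd largest of the 345 assays, whose median SD was 1.27 over the DC-primed and 0.64 over the B cell-primed samples.

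Leaving out DC-primed sample 3 changed the miR-146b result. The difference was then 6.92 ± 0.99 (SE) and passed (limma, adjusted p = 0.0116), 1 of 4 assays called higher in DC-primed cells, which is 1.16% of all assays. Leaving out both samples of round 3 gave 6.07 ± 0.80 (SE), which did not pass (limma, adjusted p = 0.0995). With DC-primed sample 1 left out instead, the difference was 0.40, and without DC-primed sample 2 it was 0.71. Setting every Ct above 35 on the panel to 35 gave miR-146b in DC-primed sample 3 a level of -4.54, which differed by -0.32 from B cell-primed sample 3. The difference between groups was then 3.94 ± 2.24 (SE), which did not pass (limma, adjusted p = 0.698).

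The other arm of the miR-146b hairpin had an assay of its own, miR-146b*, which is not one of the 3. Its sequence is shown because it does not share the seed of the miR-146 pair.
miR-146b-3p: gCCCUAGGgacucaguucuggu
Minor arms are usually degraded when the other strand is loaded into the silencing complex. miR-146b* came up at 30.45, 36.77 and 38.64 cycles in DC-primed samples 1, 2 and 3, and at 31.64, 33.88 and 32.98 cycles in B cell-primed samples 1, 2 and 3. The DC-primed minus B cell-primed difference in level was -1.12 ± 1.19 (SE) and did not pass (limma, adjusted p = 0.912). Star-strand Ct minus miR-146b Ct was 8.99, 12.41 and -0.13 cycles in DC-primed samples 1, 2 and 3, both arms being late in the last of these, and 4.04, 4.69 and 1.13 cycles in their B cell-primed partners. In rounds 1 and 2 the distance between the arms was thus larger in the DC-primed sample, and in round 2 the DC-primed star value was itself late.

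miR-147 came up at 22.29, 29.23 and 30.57 cycles in DC-primed samples 1, 2 and 3, and at 28.17, 29.37 and 30.31 cycles in B cell-primed samples 1, 2 and 3. DC-primed sample 1 stood apart, far ahead of the others, and every value was below Ct 35. After normalisation the DC-primed levels were 3.89, -0.77 and -0.11 and the B cell-primed levels -1.82, -2.25 and -2.68. On this scale the groups did not overlap, which held for 1 of the 3 miRNAs and for 4.64% of all assays toward DC-primed cells. The difference was 5.71, 1.48 and 2.57 in rounds 1, 2 and 3. It had this sign in every round for 1 of the 3 miRNAs and for 11.6% of all assays.

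For miR-147, DC-primed samples averaged 1.00 ± 2.52 and B cell-primed samples -2.25 ± 0.43 (SD, n = 3 each). The difference of 3.25 ± 1.24 (SE) was the 4th highest of 345 assays and had a 95% confidence interval of 0.35 to 6.15, before adjustment. It did not pass adjustment (limma, adjusted p = 0.535). Without DC-primed sample 1 the difference was 1.80 ± 0.60 (SE; limma, adjusted p = 0.241). The size also depended on the scaling. In raw cycles, B cell-primed Ct minus DC-primed Ct was 5.88, 0.14 and -0.26 in rounds 1, 2 and 3, so most of the normalised difference in rounds 2 and 3 is the difference in the authors' number between the paired samples. The group difference was 1.92 without normalisation and 4.48 when scaled to the control small RNAs RNY3 and snoRD47, with the median of all assays at -1.32 and 1.23 under these scalings.

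**Figure D2:**
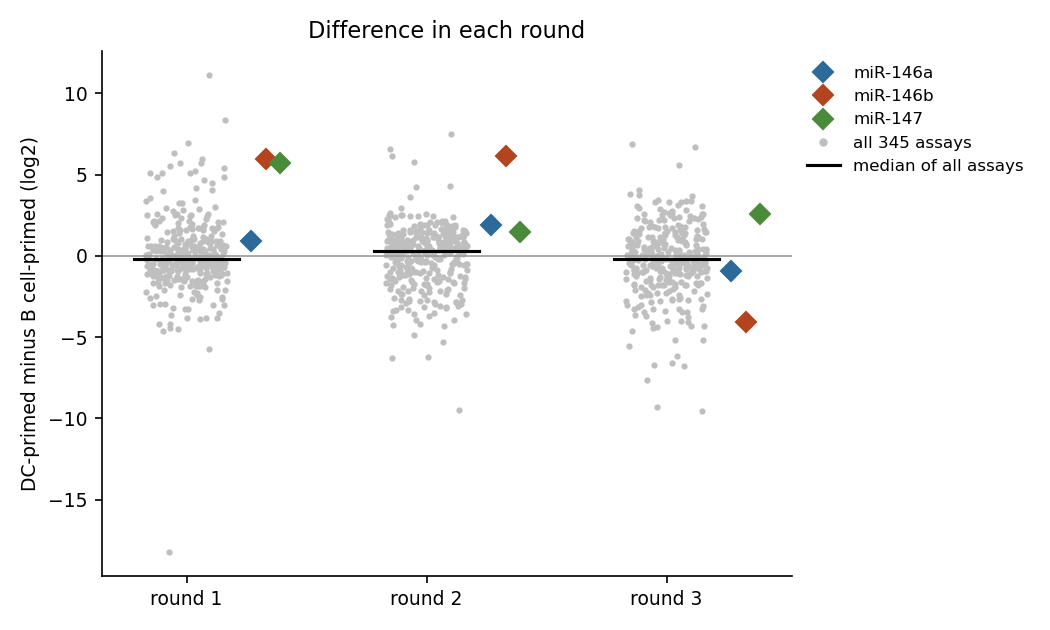
Difference in level, DC-primed minus B cell-primed (log2, vertical axis), in each of 3 rounds. Grey points are all 345 assays with their median as a black line, and diamonds mark the 3 miRNAs: miR-147 lies above 0 in every round, and miR-146b lies near the top in rounds 1 and 2 and at -4.09 in round 3.

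Comparing 2 of the miRNAs within a sample needs no normalisation, since the number per sample cancels. The gap between 2 assays includes their primers, so only its change between samples is read. Gaps are Ct of the second miRNA minus Ct of the first, so that a larger gap means more of the first. For miR-146b relative to miR-146a the gap was 1.77, 0.64 and -7.3 cycles in DC-primed samples 1, 2 and 3 and -3.27, -3.64 and -4.17 cycles in B cell-primed samples. The B cell-primed gaps lay within 1 cycle of each other. The DC-primed gap minus that of its B cell-primed partner was 5.04, 4.28 and -3.13 cycles in rounds 1, 2 and 3. The mean gap was -1.63 ± 4.94 for DC-primed and -3.69 ± 0.45 for B cell-primed samples (SD, n = 3 each), a difference of 2.06, no larger than the scatter between samples (exact permutation, two-sided, p = 0.4, adjusted 0.6 over 3 gaps). With 3 samples against 3 the smallest possible p is 0.1. Without DC-primed sample 3 the difference was 4.90, and without DC-primed sample 1 it was 0.36.

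For miR-147 relative to miR-146a the gap was 0.94, -4.23 and 0.9 cycles in DC-primed samples 1, 2 and 3 and -3.84, -3.82 and -2.63 cycles in B cell-primed samples. DC-primed samples 1 and 3 stood above all B cell-primed samples, and DC-primed sample 2 stood below them. The difference of 2.63 was smaller than the DC-primed SD (exact permutation, two-sided, p = 0.4, adjusted 0.6), and it was 4.35 without DC-primed sample 2. For miR-147 relative to miR-146b the gap was -0.83, -4.87 and 8.2 cycles in DC-primed samples and -0.57, -0.18 and 1.54 cycles in B cell-primed samples. The difference of 0.57 was smaller than the DC-primed SD as well (exact permutation, two-sided, p = 1), and it was -3.11 without DC-primed sample 3. For these 3 gaps, in the order given, the SD was 4.94, 2.97 and 6.69 cycles over the DC-primed samples and 0.45, 0.69 and 1.12 cycles over the B cell-primed samples.

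**Figure D3:**
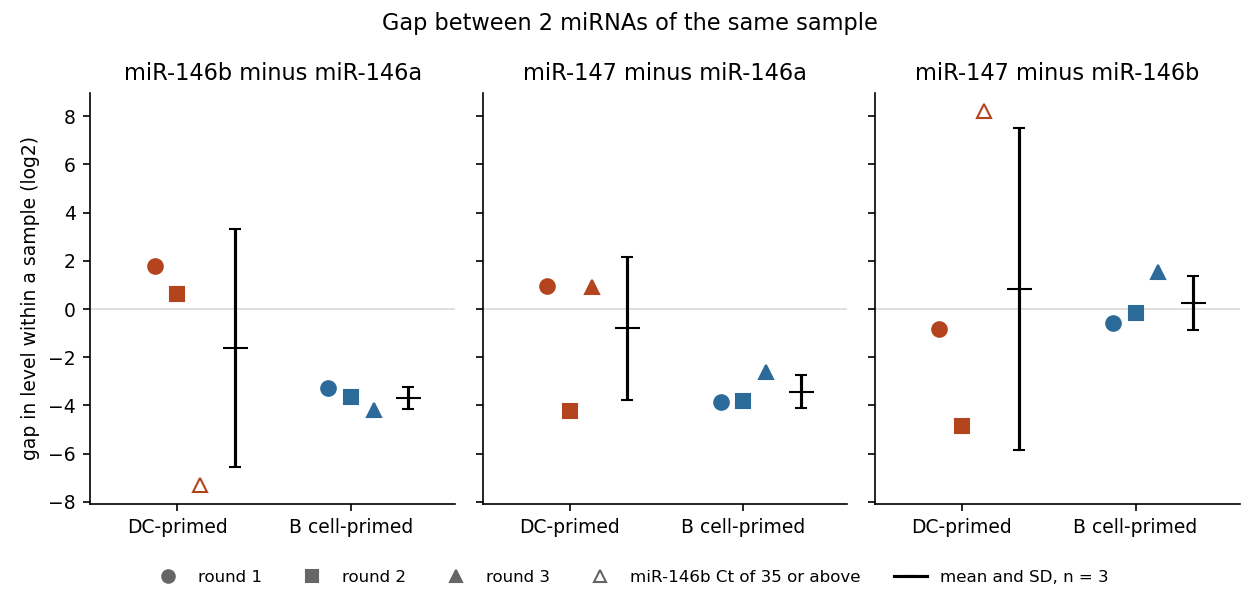
Gap between 2 miRNAs of the same sample (log2, vertical axis) for each DC-primed and B cell-primed sample, with round symbols, an open symbol where the miR-146b Ct was 35 or above, and bars for the mean and SD (n = 3). The B cell-primed gaps of miR-146b minus miR-146a lie between -4.17 and -3.27, and the DC-primed gaps between -7.3 and 1.77.

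Across the 6 samples the levels of miR-146a and miR-146b had a Pearson correlation of 0.96 and a Spearman correlation of 0.94. miR-147 correlated with them at 0.36 and 0.50 (Pearson). Among the 247 other mouse-named assays for main arms, those whose levels were most like miR-146a were let-7a at 0.997, let-7f at 0.995, miR-146b, miR-185 at 0.916 and miR-26b at 0.910. For miR-146b they were miR-185 at 0.978, miR-30d at 0.970, miR-99a at 0.969, miR-146a and miR-26a at 0.954. For miR-147 they were miR-139-5p at 0.998, miR-99b at 0.939, miR-22 at 0.905, miR-350 at 0.895 and miR-221 at 0.888 (Pearson). The Spearman correlation was 0.49 for miR-22 and 0.37 for miR-221 with miR-147, and 0.83 to 1 for the other likenesses named. Both miR-146b and miR-99a were late in DC-primed sample 3, at 38.77 and 37.29 cycles. All coefficients named are a description over 6 samples that share 1 normalising number each. let-7a, for example, had DC-primed levels of 6.28, 7.08 and 2.90 and B cell-primed levels of 5.71, 5.19 and 3.67, in the same order as miR-146a. miR-139-5p had DC-primed levels of 0.34, -1.86 and -1.38 and B cell-primed levels of -2.25, -2.49 and -2.53, in the same order as miR-147.

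The wider group comprised 14 miRNAs known to be raised by NF-kappaB or Toll-like receptor signalling, the 3 described here included. This list and the others named here were chosen with earlier results of these data known, so counts over them are a description only. All 14 had an assay, 13 had a mean difference above 0 and 1 below, and the median was 1.48 against 0.01 over all assays. None passed (limma, 0 of 14 at an adjusted p under 0.05). At an unadjusted p under 0.05 (limma), miR-147 and miR-21 were higher in DC-primed cells. They are the only 2 of all 345 assays (0.58%) that were, so this share is no separate background. Toward B cell-primed cells there were 25 of the 345. On the authors' scale the groups did not overlap for 4 of the 14, all higher in DC-primed cells: miR-147, miR-21, miR-132 and miR-99b. Over all assays the share was 4.64%. In raw cycles the groups overlapped for each of these 4 miRNAs. miR-21, an abundant miRNA of activated T cells, averaged 10.1 ± 2.77 over DC-primed and 6.95 ± 0.51 over B cell-primed samples (SD, n = 3 each). The differences ran from 4.78 for miR-9, which in human monocytes represses the NF-kappaB subunit gene NFKB1, to -3.07 for miR-301a, which in human cells promotes NF-kappaB activity by repressing its inhibitor NKRF. The median difference of the 14 was 3.12, 1.74 and 0.05 in rounds 1, 2 and 3. The count depends on the scaling: without normalisation 7 of the 14 were above 0 and 7 below, with a median of 0.15 where that of all assays was -1.32. After quantile normalisation 12 were above 0 and 2 below.

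**Figure D4:**
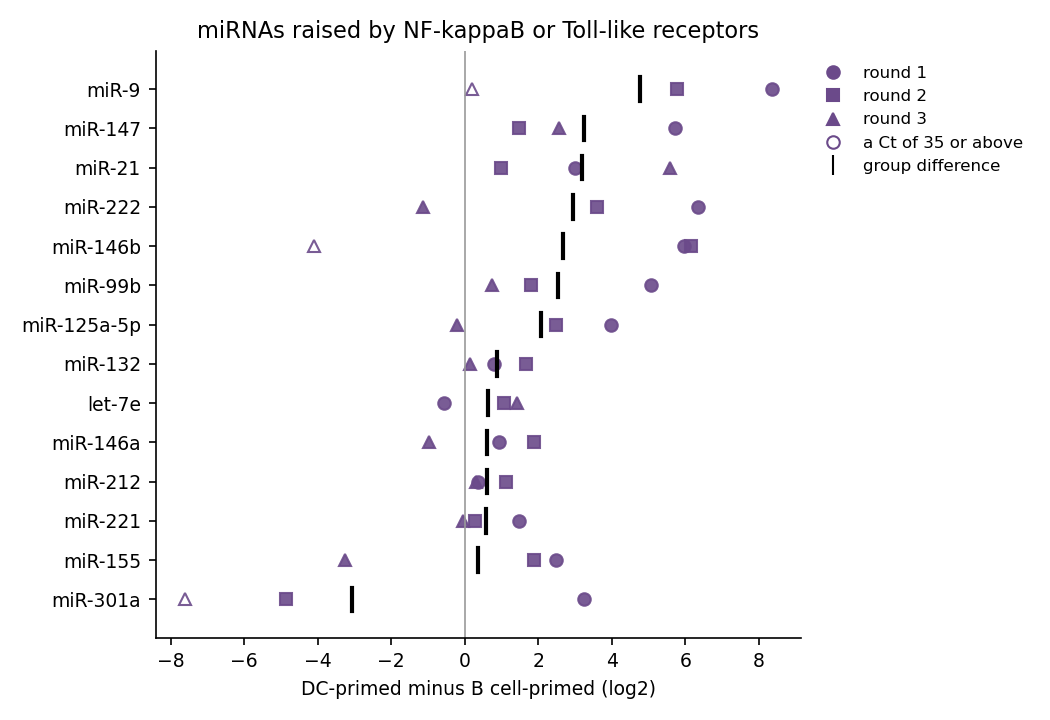
Difference in level, DC-primed minus B cell-primed (log2, horizontal axis), for 14 miRNAs raised by NF-kappaB or Toll-like receptors (rows). Symbols give each round, open where a Ct was 35 or above, and black bars give the group difference, which runs from -3.07 for miR-301a to 4.78 for miR-9.

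Markers of myeloid and dendritic cells had mean differences toward DC-primed cells on the authors' scale, but most of them not in every round. Only miR-99b was higher in every round, 1 of the 6 against 11.6% of all assays. Its groups alone did not overlap on that scale, 1 of the 6 against 4.64% of all assays. Of the 6 listed, 3 (miR-99b, miR-125a-5p and let-7e) are among the 14 above, so the lists are not independent. All 6 had an assay and a mean difference above 0 on the authors' scale, or 4 of 6 without normalisation, and none passed (limma, adjusted p under 0.05 for 0 of 6). Summed over the 6, the log2 level ran from 5.24 to 7.12 among the DC-primed samples. Among the B cell-primed samples it ran from 4.15 to 4.24. Such a sum mostly follows the assay with the highest level. Outside DC-primed sample 1 that assay was let-7e, at 22.4 to 25.13 cycles, so the sum says little about the other members there. The groups overlapped for let-7e, with a mean difference of 0.64. On the authors' scale the median difference of the 6 was 4.52, 1.44 and 0.88 in rounds 1, 2 and 3. In raw cycles of round 3, all 6 came up later in the DC-primed sample. For let-7e this was 25.13 cycles against 23.73 in the B cell-primed sample. miR-223, the most myeloid-restricted of them, came up at 20.82, 27.23 and 36.99 cycles in DC-primed samples 1, 2 and 3, and at 32.14, 32.44 and 32.67 cycles in B cell-primed samples 1, 2 and 3. As with miR-146b, it was early in DC-primed samples 1 and 2 and late in DC-primed sample 3, where its difference was -1.49 after 11.1 and 6.55 in rounds 1 and 2. Without DC-primed sample 3, miR-223 was 8.68 ± 1.17 (SE) higher in DC-primed cells and passed (limma, adjusted p = 0.0116), as did miR-146b. miR-99b and miR-22, among the assays most like miR-147, are on this list as well, while miR-185, the assay most like miR-146b, is on the list for B cells. All 6 had a Ct in every sample, with miR-223 late in DC-primed sample 3, and their part in the differences of miR-146a, miR-146b and miR-147 was not tested. The 3 miRNAs listed for B cells had differences of 0.17 to 1.07, all below 0 without normalisation, and none passed, and none of these is found in B cells alone.

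The authors' deposited table gives ratios of DC-primed over B cell-primed of 1.53 for miR-146a, 6.41 for miR-146b and 9.51 for miR-147. In the authors' deposited table the p-values, from a paired test over the 3 rounds, are 0.538, 0.512 and 0.125 in the same order, and 18 of 345 assays have a p under 0.05.

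**Figure D5:**
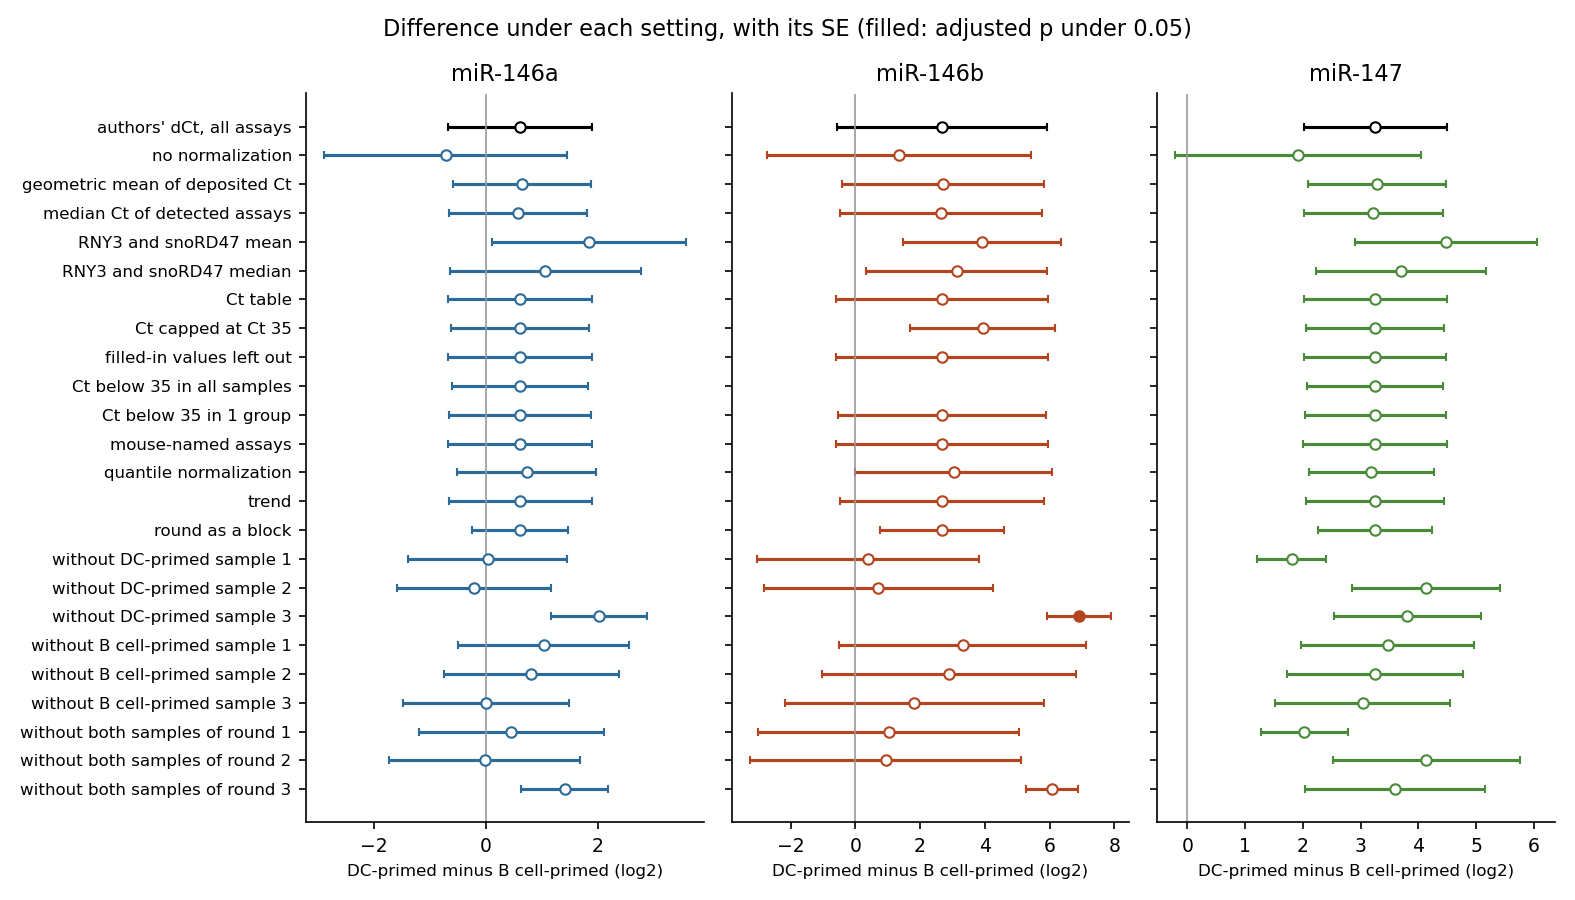
Difference in level, DC-primed minus B cell-primed (log2, horizontal axis), with its SE, for each of the 3 miRNAs under each scaling, filter or left-out sample (rows). A filled point marks an adjusted p under 0.05, which only miR-146b without DC-primed sample 3 reached, and the point of miR-147 lies above 0 in every row.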

How the data were processed

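miRNAs were measured by SYBR Green quantitative PCR after poly(A) tailing and cDNA synthesis from tagged oligo-dT primers, per the labels' protocols. One deposited table gives raw Ct (350 miRNA assays and control wells) and another dCt (345 assays, log2 scale), which per the file headers the authors made by subtracting each sample's geometric mean Ct. In each sample, the geometric mean recomputed here over the deposited miRNA Ct values exceeded the subtracted number by 0.73 to 1.05 cycles. The file names state the reverse, and the values match the headers. For the 3 miRNAs Ct and dCt differed by 1 constant per sample, and none of the 10 Ct values that the authors filled in was theirs. The authors' p-value and fold change (a ratio) are from the deposited tables. The instrument is not given in the sources used. Levels were tested with limma 3.58.1 in R 4.3.3 (lmFit, eBayes, two-sided, Benjamini-Hochberg over 345 assays, threshold 0.05), with no Ct filter, because a limit of 35 in all 6 samples removes miR-146b. This main fit had no term for the round and so did not use the pairing. The round was a block only in an alternative. The fitting code was tested on simulated data. Gaps were tested in Python 3.11.15 by exact permutation over samples, which also did not use the pairing. Group labels came from sample titles. Same-round deviations from group means correlated at 0.18, 0.18 and 0.46 across 345 assays, and rounds 1, 2 and 3 were taken to pair the samples, although across rounds the pair of DC-primed sample 1 and B cell-primed sample 2 reached 0.30, above rounds 1 and 2. The named assays were the 3 miRNAs, their star-strand assay, the 5 most alike in Pearson correlation, and list members. These members and lists were chosen with earlier results of these data known. The number of samples limits the precision. Alternatives covered scaling, Ct limits, the table used, filled-in values, human-named assays, a trend, the round as a block, and left-out samples and rounds. List members were matched to mouse-named assays by exact name. Of the list for other tissues only miR-1 matched, since miR-205 had a human-named assay and miR-208 was split into miR-208a and miR-208b. Its difference was -0.18 (limma, adjusted p = 0.983).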

Additional observations from a re-analysis of the deposited data

How the results depend on the processing

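The miR-147 difference stayed above 0 under all 23 alternatives, from 1.80 to 4.48, and passed under none (limma, adjusted p 0.234 to 1). The miR-146b difference stayed above 0 under 22, from 0.40 to 6.92, and passed under 1, without DC-primed sample 3; it could not be fitted with a limit of Ct 35 in all samples. The miR-146a difference reversed without normalisation (-0.71) and without both samples of round 2 (-0.018), and ranged from -0.21 to 2.02 with single samples left out. miR-146b ranged from 0.40 to 6.92 and miR-147 from 1.80 to 4.14 with single samples left out. With the round as a block the adjusted p was 0.884 for miR-146a, 0.711 for miR-146b and 0.324 for miR-147 (limma). The SE was smaller with the block, at 0.86, 1.93 and 0.99 in the same order. limma called 0 assays, so the block changed no call. At an unadjusted p under 0.05 (limma) there were 9 assays toward DC-primed and 27 toward B cell-primed cells with the block. Without the block, limma called 0 assays over the 6 samples. At an unadjusted p under 0.05 there were then 2 toward DC-primed and 25 toward B cell-primed cells. The number called ranged from 0 to 5 with single samples left out: 1 without DC-primed sample 1 (miR-449a, lower) and 5 without DC-primed sample 3 (miR-223, miR-9, miR-146b and miR-184 higher, miR-805 lower). miR-184, miR-449a and miR-805 were named after their values were seen. Relative to the mean of RNY3 and snoRD47 wells, 12 higher and 2 lower had an unadjusted p under 0.05, and without normalisation 0 and 18. Relative to the median of those wells, chosen after seeing the data, the differences were 1.07 for miR-146a, 3.13 for miR-146b and 3.70 for miR-147. The gap of miR-147 to miR-146b reversed with Ct capped at 35 (-0.69) and without both samples of round 3 (-2.48), and ranged from -3.11 to 3.42 with single samples left out. The other gaps kept their sign, from 0.36 to 4.90 for miR-146b to miR-146a and from 1.56 to 4.35 for miR-147 to miR-146a. With sign flips within rounds no p can be below 0.25. The cause of these changes was not tested.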
